A study of Mus musculus with 6 samples.

Results

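The genes St8sia1, St8sia6, Auts2, Fgf13, Rapgef4, Bach2, Aff3, Ssbp2, Scml4 and Wwox are 10 of the 32285 genes counted by single-cell RNA-Seq in CD45+ cells of B16-F10 tumors. They were chosen by their measured UMI counts, because their transcripts were lower in T cells of αPD-1 + corin tumors than in T cells of αPD-1 tumors and because most of them are long genes. Their values in T cells by Malat1 content and in B and NK cells were part of the same choice. The levels of the 10 genes are therefore given as a description throughout, without a test, and tests are given for other genes only. B16-F10 is a mouse melanoma line, and it was grown in female C57BL/6 mice aged 6 to 10 weeks. From day 7 every mouse was given αPD-1 antibody at 150 μg, 3 times a week. The αPD-1 + corin group (n = 3 samples) also received 200 μg of corin daily from day 6, a small molecule inhibitor of the CoREST chromatin complex, and the αPD-1 group (n = 3 samples) was given vehicle. There were 10 mice to an arm. Since no label ties a sample to a mouse, p-values measure the spread between these samples only. The tumors were frozen as cell suspensions, and the thawed cells were cleared of dead cells and enriched for CD45 on beads.

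T cells were the cells with at least 1 UMI (a count of 1 captured RNA molecule) of Cd3d, Cd3e and Cd3g together. There were 1556, 1255 and 1278 T cells in αPD-1 replicates 1 to 3 and 683, 926 and 1874 in αPD-1 + corin replicates 1 to 3, 7572 of 28865 cells kept. Levels are CPM values, the UMIs of a gene scaled to a total of 1000000 UMIs over the class in a sample, and they were not divided by gene length. In sums over cells, fewer cells of a kind and less RNA per cell cannot be told apart.

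Several of these genes are known from resting lymphocytes. Naive T cells circulate with an open program of transcription factors that is shut down when they are activated, and effector T cells take on cytotoxic and exhaustion genes in its place. Bach2 is a repressor that restrains effector differentiation in T cells and plasma cell differentiation in B cells. Aff3 is a lymphoid nuclear protein of the AF4/FMR2 family, Ssbp2 is a cofactor of LDB1 complexes, Auts2 is a subunit of a variant Polycomb complex, and Scml4 is a Polycomb-related protein. St8sia1 (the GD3 synthase) and St8sia6 are enzymes that add sialic acid to glycans, Rapgef4 (Epac2) is an exchange factor for Rap that cAMP activates, Fgf13 is an intracellular protein of the FGF homologous family known for binding sodium channels, and Wwox is a WW domain oxidoreductase whose gene lies over a fragile site. Long genes yield long pre-mRNAs that are mostly intron, and Malat1 is a nuclear RNA whose share of a cell's UMIs rises when cytoplasmic RNA is scarce.

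The libraries held between 52281422 and 84276739 UMIs and between 6433 and 13228 barcodes. Of 52600 distinct barcodes, 299 occurred in more than 1 library, and 93 of the T cells carried such a barcode. T cells of the groups differed in what else they contained. Of them, 1406 of 4089 with αPD-1 and 60 of 3483 with αPD-1 + corin also met the B cell gate (at least 3 UMIs of B cell markers). The summed level of 3 B cell markers (Cd79a, Cd79b and Ms4a1) was 515 to 843 CPM in αPD-1 T cells and 11.9 to 36.8 CPM in αPD-1 + corin T cells, all 3 being detected in every sample. The summed level of 4 neutrophil markers was 37.0 to 79.3 CPM against 270 to 7816 CPM, and that of 6 macrophage markers was 771 to 1069 CPM against 1193 to 2515 CPM. Strict T cells, which met the gate of no other cell type, numbered 787, 740 and 633 with αPD-1 and 249, 335 and 1268 with αPD-1 + corin, and in them Cd3d had a UMI in 72.7% to 88.9% of cells and Trac in 41.4% to 61.8%. The B cell markers came to 21.6 to 53.7 CPM against 4.13 to 16.2 CPM, Ms4a1 being at 0 in the αPD-1 + corin samples, and the neutrophil markers to 8.70 to 13.4 CPM against 27.6 to 179 CPM. Values are given for both sets of cells, and the part of other cells in the differences between treatments was not tested beyond this.

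By their Ensembl identifiers all 10 genes were found in the GENCODE vM39 annotation of GRCm39. Auts2 (chr5:131466171-132572183, minus strand) and Wwox (chr8:115166192-116079448, plus strand) are the longest, with spans of 1106 and 913 kb. Fgf13 (chrX:58106279-58613431, minus) spans 507 kb, Aff3 (chr1:38214515-38704036, minus) 490 kb and Bach2 (chr4:32238714-32586108, plus) 347 kb. Rapgef4 (chr2:71811328-72089838, plus) spans 279 kb and Ssbp2 (chr13:91608402-91854365, plus) 246 kb. St8sia6 (chr2:13655832-13798896, minus), St8sia1 (chr6:142767271-142910178, minus) and Scml4 (chr10:42736345-42839573, plus) are shorter, at 143, 143 and 103 kb. The median span of the 12595 genes tested in T cells with a position was 25.5 kb, and 571 of them (4.53%) spanned 200 kb or more, as did 7 of the 10 genes. Exons of the canonical transcript cover from 0.268% of the span in Wwox to 7.46% in Scml4, so most of each gene is intron. All 10 are protein-coding genes. Spans are those of the whole annotated gene over all its transcripts, and the canonical transcript can be shorter. That of Fgf13 starts inside the span, within chrX:58179767-58180046.

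The regions around the canonical starts were read from GRCm39, from 250 bases before to 30 bases after the start, because genes that move together may share promoter features. Bases in capitals mark the hexamers CTTTGA, bound by TCF and LEF factors, GGAAGT, bound by ETS factors, and TGTGGT, bound by RUNX factors, on either strand. St8sia6 is shown because it holds the TCF/LEF hexamer, Scml4 and Wwox because they hold the ETS hexamer, and Bach2 for contrast because it is the most abundant of the 10 in T cells and holds none.
St8sia6 (chr2:13798867-13799146, minus): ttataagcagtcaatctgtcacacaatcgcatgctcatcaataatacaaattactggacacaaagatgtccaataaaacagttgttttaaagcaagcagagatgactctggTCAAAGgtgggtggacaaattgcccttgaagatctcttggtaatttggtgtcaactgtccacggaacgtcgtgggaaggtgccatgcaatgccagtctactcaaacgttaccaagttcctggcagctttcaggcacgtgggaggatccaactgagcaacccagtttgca
Scml4 (chr10:42736095-42736374, plus): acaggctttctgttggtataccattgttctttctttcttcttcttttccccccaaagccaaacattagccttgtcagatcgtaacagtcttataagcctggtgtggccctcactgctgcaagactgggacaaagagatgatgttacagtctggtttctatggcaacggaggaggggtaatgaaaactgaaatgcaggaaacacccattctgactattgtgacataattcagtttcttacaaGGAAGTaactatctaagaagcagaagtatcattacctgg
Wwox (chr8:115165942-115166221, plus): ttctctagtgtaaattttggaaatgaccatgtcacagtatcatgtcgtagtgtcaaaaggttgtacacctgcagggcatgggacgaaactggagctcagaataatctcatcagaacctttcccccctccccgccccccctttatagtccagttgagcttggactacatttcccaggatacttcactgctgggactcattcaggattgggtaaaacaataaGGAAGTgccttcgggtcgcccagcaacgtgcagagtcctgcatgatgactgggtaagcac
Bach2 (chr4:32238464-32238743, plus): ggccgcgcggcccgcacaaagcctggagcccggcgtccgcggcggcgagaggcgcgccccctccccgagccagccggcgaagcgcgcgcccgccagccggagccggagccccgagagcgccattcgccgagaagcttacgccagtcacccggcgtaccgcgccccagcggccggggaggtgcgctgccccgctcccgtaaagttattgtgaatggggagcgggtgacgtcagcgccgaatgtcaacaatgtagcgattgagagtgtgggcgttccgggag
The TCF/LEF hexamer was in 1 of the 10 regions and in 12.9% of the 12595 regions of tested genes, the ETS hexamer in 2 of 10 and in 26.1%, and the RUNX hexamer in 0 of 10 and in 13.4%. The St8sia6 match is on the opposite strand and reads TCAAAG. No region holds more than 1 of the hexamers, and a match is a run of letters, not a measured binding site. GC content split the 10 regions. It was 64.3% to 80.0% in St8sia1, Auts2, Fgf13, Bach2, Aff3 and Ssbp2 and 42.1% to 51.4% in St8sia6, Rapgef4, Scml4 and Wwox, against a median of 57.1% over tested genes. Which starts these T cells use was not measured.

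All 10 transcripts were lower in αPD-1 + corin T cells than in αPD-1 T cells, and in none of them did the samples of the groups overlap. The ratio of group means ran from 2.12 for Wwox to 14.7 for St8sia6. Of all 12648 genes tested, 29.2% were lower without overlap and 9.04% were lower by edgeR at an adjusted p under 0.05, and both figures are given as background only since this contrast chose the genes. The 10 transcripts together made up 1409 to 1796 CPM of αPD-1 T cells and 257 to 306 CPM of αPD-1 + corin T cells. They were not lost altogether: between 22 UMIs (St8sia6) and 1551 UMIs (Bach2) were counted in the 3483 αPD-1 + corin T cells.

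Among the nuclear regulators, Bach2 stood at 644, 470.1 and 698 CPM with αPD-1 and at 101, 93.4 and 68.5 CPM with αPD-1 + corin. Aff3 stood at 476, 366 and 466 CPM against 53.6, 64.8 and 39.1 CPM. Both were several times higher in every αPD-1 sample, and they were the most abundant of the 10 in that group. Scml4 stood at 149, 125 and 134 CPM against 24.0, 25.9 and 26.7 CPM. Ssbp2 stood at 96.0, 79.7 and 82.0 CPM against 16.5, 22.0 and 25.0 CPM. The samples of each group lay close together for these cofactors, with a wide gap between the groups. Auts2 was rarer, at 27.4, 27.1 and 16.7 CPM against 4.35, 1.43 and 1.21 CPM, and its 35 UMIs in the αPD-1 + corin samples leave its ratio of 10.2 imprecise.

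Among the enzymes and signaling proteins, Fgf13 stood at 158, 138 and 143 CPM with αPD-1 and at 26.7, 33.8 and 31.8 CPM with αPD-1 + corin. Rapgef4 stood at 63.5, 42.5 and 63.9 CPM against 9.27, 7.15 and 3.53 CPM. The sialyltransferases were both low in abundance and far apart between the groups. St8sia1 stood at 38.0, 36.2 and 30.5 CPM against 9.85, 5.72 and 3.33 CPM, and St8sia6 at 26.2, 16.3 and 14.9 CPM against 1.16, 2.14 and 0.605 CPM, the latter from 4, 12 and 6 UMIs. Wwox, the longest gene but Auts2, was the least different, at 118, 108 and 123 CPM against 60.0, 47.5 and 57.1 CPM.

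**Figure D1:**
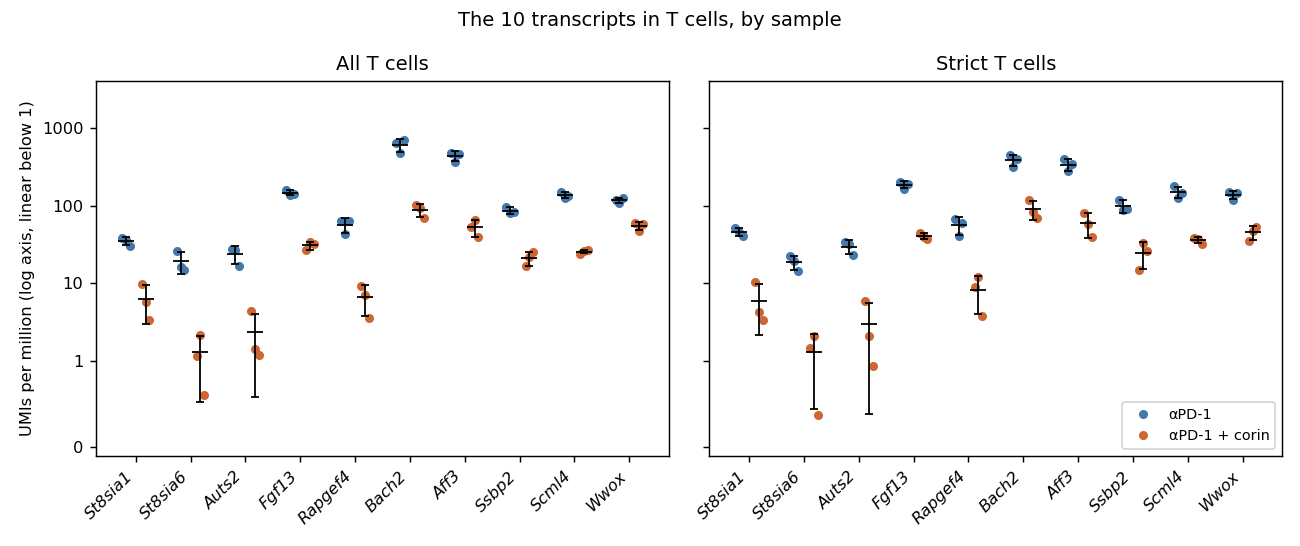
CPM of each of the 10 transcripts in all T cells (left) and strict T cells (right), on an axis that is logarithmic above 1. Points are samples, bars are the mean ± SD (n = 3), and in both sets of cells every αPD-1 sample lies above every αPD-1 + corin sample for each gene.

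The 10 transcripts were also lower without overlap in strict T cells, where 18.5% of 10315 genes tested were lower without overlap and 3.37% by edgeR. Bach2 averaged 385 ± 66.3 CPM (SD, n = 3) with αPD-1 and 90.1 ± 25.0 CPM with αPD-1 + corin, a ratio of 4.27 against 6.90 in all T cells. The ratio of Aff3 was 5.71 against 8.30. Both are abundant in B cells, and in αPD-1 T cells that also met the B cell gate Bach2 averaged 906 ± 80.3 CPM and Aff3 606 ± 7.18 CPM. By sample, strict T cells held Bach2 at 446, 315 and 395 CPM against 118, 82.4 and 69.9 CPM. They held Aff3 at 393, 275 and 339 CPM against 79.7, 57.8 and 39.0 CPM. The lowest αPD-1 sample was above the highest αPD-1 + corin sample by a wide margin for both. Fgf13 stood at 201, 165 and 191 CPM against 44.3, 39.5 and 37.3 CPM, and Scml4 at 177, 126 and 144 CPM against 38.4, 36.6 and 32.3 CPM. St8sia1 stood at 50.9, 46.3 and 40.3 CPM against 10.3, 4.23 and 3.38 CPM, and Wwox, with the smallest ratio, at 147, 117 and 147 CPM against 35.4, 47.2 and 52.5 CPM. Leaving out the barcodes that also met another gate thus lowered Bach2 and Aff3 in the αPD-1 samples and raised St8sia1, Fgf13 and Wwox there. The other ratios in strict T cells were 14.1 for St8sia6, 9.93 for Auts2, 7.67 for St8sia1, 6.82 for Rapgef4, 4.60 for Fgf13, 4.17 for Scml4, 3.99 for Ssbp2 and 3.05 for Wwox. Counted per cell, the 10 genes gave 4.58 to 5.09 UMIs in αPD-1 strict T cells and 0.97 to 1.34 UMIs in αPD-1 + corin strict T cells, whose median depths were 2177 to 2950 and 2076 to 3339 UMIs.

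Shares of cells with a UMI gave the same order when each cell was thinned to 1000 UMIs. Bach2 was detected in 31.2% ± 1.78 (SD, n = 3) of thinned αPD-1 strict T cells and in 8.77% ± 3.19 of thinned αPD-1 + corin strict T cells (50.1% and 20.4% unthinned). Thinning left out 26 and 20 shallower cells. In monocytes and macrophages, cells of another type in which free RNA would also be caught, the thinned shares were 5.50% and 3.74%, with median depths of 4419 and 3707 UMIs against 2484 and 3026 in strict T cells. Aff3 was detected in 27.7% and 7.19% of thinned strict T cells and in 1.61% and 0.462% of thinned macrophages. St8sia6 was detected in 2.58% and 0.366% of strict T cells and in 0.225% and 0.0454% of macrophages. For Wwox, 11.7% and 4.94% of strict T cells had a UMI beside 9.25% and 6.88% of macrophages, so that its share in αPD-1 + corin T cells was not above that of the macrophages. Wwox was the most abundant of the 10 in macrophages, and free RNA itself was not measured, so how much of the Wwox in T cells is background was not tested.

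The cells of the groups differed in how many had a naive marker. A UMI of Lef1 or Ccr7, which mark naive and central memory T cells, was found in 50.9% to 59.0% of αPD-1 strict T cells and in 18.8% to 25.3% of αPD-1 + corin strict T cells. The strict T cells were therefore split by such a UMI, a split made after the data were seen. A cell without such a UMI can still be naive. The cells without one had median depths of 2168.5 to 3124 UMIs per sample, at which a UMI of either gene can be missed. How many naive cells were among them was not tested. With a naive marker, all 10 transcripts were lower without overlap, beside 18.1% of the 10315 genes tested in strict T cells, and their fitted log2 fold changes had a median of -2.16, beside -0.0012 over the other genes. St8sia6 stood at 28.2 to 32.6 CPM in the αPD-1 samples and came to 1 UMI in the 382 αPD-1 + corin cells. Bach2 averaged 540.4 ± 67.7 CPM against 156 ± 17.1 CPM. Without a naive marker, all 10 means were lower as well, 9 of the 10 without overlap beside 11.1% of the same genes, and the median over the 8 genes that could be fitted was -1.32, beside 0.014 over the other genes. Aff3 averaged 194 ± 31.4 CPM against 42.4 ± 19.3 CPM there, Bach2 221 ± 53.9 CPM against 68.6 ± 26.3 CPM and Wwox 109 ± 4.49 CPM against 46.2 ± 12.8 CPM. St8sia6 overlapped between the groups in these cells. edgeR called 0 of 8753 genes there at an adjusted p under 0.05 and 692 at an unadjusted p under 0.05.

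**Figure D2:**
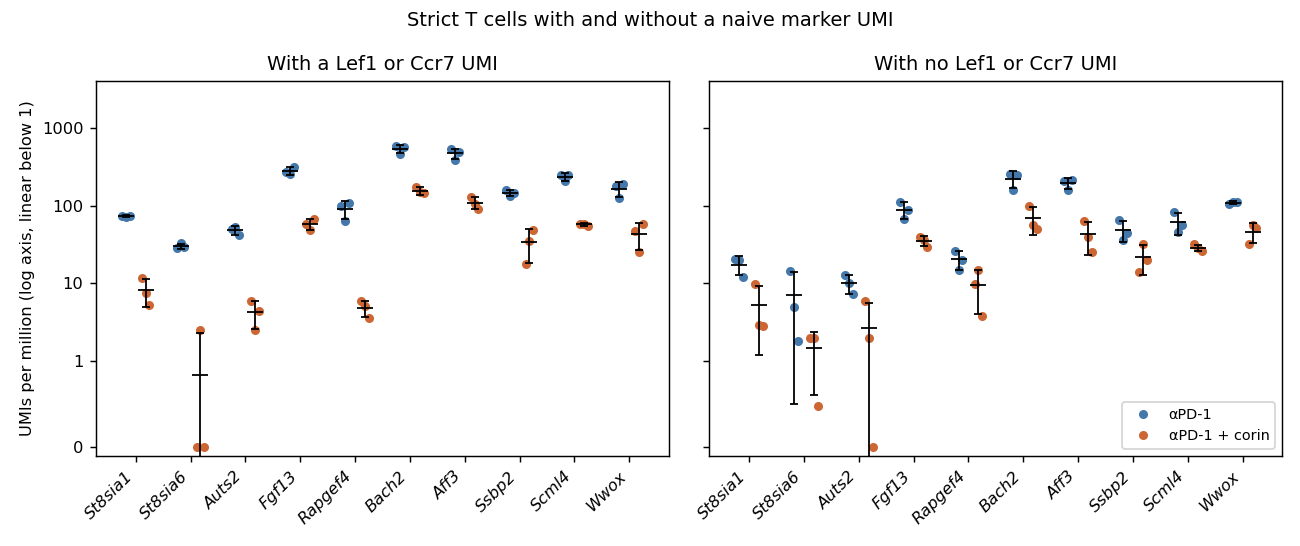
CPM of the 10 transcripts in strict T cells with (left) and without (right) a UMI of Lef1 or Ccr7, on an axis that is logarithmic above 1. Points are samples and bars are the mean ± SD (n = 3); the groups are apart for every gene on the left and overlap for St8sia6 alone on the right.

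The means were lower in CD8 and in CD4 cells. In strict T cells with Cd8a or Cd8b1 and no Cd4 (1032 and 1153 cells), all 10 transcripts were lower without overlap, beside 14.8% of the genes tested in strict T cells, Bach2 averaging 299 ± 93.5 CPM against 76.4 ± 27.4 CPM and Auts2 31.9 ± 9.55 CPM against 1.91 ± 1.40 CPM. In cells with Cd4 but no Cd8 or Foxp3 UMI (247 and 89 cells), 9 of 10 were lower without overlap, beside 10.3% of these genes, and St8sia6 averaged 52.0 ± 20.8 CPM against 0 UMIs in 260864, which allows up to 11.5 CPM by counting error alone. St8sia1 and St8sia6 were higher in αPD-1 CD4 cells (103 and 52.0 CPM) than in αPD-1 CD8 cells (27.7 and 4.81 CPM), while Auts2 was level between them (30.8 and 31.9 CPM). In Foxp3+ cells (132 and 113 cells), all 10 means were lower and 4 did not overlap, beside 6.78%, among them Bach2 at 242 ± 142 CPM against 32.5 ± 26.0 CPM. In cells with at least 2 UMIs of Mki67 and Top2a (290 and 441 cells), 8 of 10 were lower without overlap, beside 9.06%, and the levels in αPD-1 cells were already low, with Bach2 at 114 ± 54.7 CPM and Scml4 at 47.7 ± 19.3 CPM.

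The next comparison asked whether the transcripts go with Malat1 within a sample. Cells with Malat1 over 1.5% of their UMIs made up 10.0%, 8.92% and 8.45% of T cells with αPD-1 and 5.42%, 19.1% and 2.99% with αPD-1 + corin (exact permutation test, two-sided, p = 1.0, where 0.1 is the smallest p that 3 samples against 3 can give). In αPD-1 + corin replicate 2, where the share was highest, T cells also held most neutrophil markers. The median Malat1 share of strict T cells was 0.689% to 0.786% with αPD-1 and 0.435% to 0.494% with αPD-1 + corin. Their median mitochondrial share was 2.31% to 2.67% and 1.84% to 2.07%. Both were without overlap, although the median Malat1 share of all T cells overlapped. The part of these measures in the differences between treatments was not tested. All 10 transcripts had higher fitted levels in the cells over 1.5%, with the sample as a block. Of all 11457 genes tested, 7.53% were higher by edgeR at an adjusted p under 0.05, which is given as background only. The log2 fold changes were 1.40 ± 0.24 (SE) for St8sia1, 1.32 ± 0.18 for Fgf13, 1.30 ± 0.33 for Auts2, 1.26 ± 0.26 for Rapgef4 and 1.22 ± 0.41 for St8sia6. They were 1.10 ± 0.17 for Ssbp2, 0.93 ± 0.16 for Aff3, 0.85 ± 0.20 for Wwox, 0.74 ± 0.21 for Scml4 and 0.59 ± 0.17 for Bach2. The split compares cells within a sample and not the treatments, but it was among the values that chose the genes. With a limit of 3% Malat1 in place of 1.5% Bach2 stood at -0.01.

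The direction was seen in all 3 αPD-1 samples for each of the 10 genes. Bach2 went from 620.4, 451 and 669.9 CPM under 1.5% to 1170.3, 871 and 1346 CPM over 1.5% in them, and Fgf13 from 144, 125 and 129 CPM to 464, 413 and 455 CPM. Aff3 went from 453, 344 and 439 CPM to 989.8, 836 and 1064 CPM, and Wwox from 111, 102 and 112 CPM to 261, 238 and 377 CPM. In the αPD-1 + corin samples Bach2 stood at 97.8, 90.6 and 68.6 CPM under 1.5% and at 216, 110.3 and 67.3 CPM over it, and Fgf13 at 26.2, 28.7 and 31.4 CPM and 45.5, 63.9 and 55.1 CPM. These were 19, 88 and 11 UMIs of Bach2 over 1.5%, and the gap between treatments was thus found in both Malat1 classes. In all 6 samples only St8sia1, Fgf13, Aff3 and Ssbp2 were higher over 1.5%, 4 of 10 beside 8.4% of genes tested. St8sia6 and Auts2 were higher in 0 of 3 αPD-1 + corin samples: over 1.5% St8sia6 had 0 UMIs among 1048901 there, which allows up to 2.86 CPM, and 49 UMIs among 862049 in the αPD-1 samples. The fitted interaction of Malat1 class and treatment had a median of -0.60 on the log2 scale over the 10 genes, beside -0.05 over all genes, of which 0.882% passed by edgeR. In strict T cells the fitted levels of all 10 genes were again higher over 1.5%, where 16.9% of 7169 genes were called higher, and 5 of 10 were higher in all 6 samples, beside 10.7%.

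The cells over 1.5% were shallower and poorer in ribosomal protein RNA. Their median depth was 1560 to 1904 UMIs in the αPD-1 samples against 4013 to 4262 UMIs under 1.5%, and their median ribosomal share was 10.3% to 10.6% against 16.1% to 19.1%. Counted per cell, all αPD-1 T cells held 7.98, 8.10 and 9.75 UMIs of the 10 genes over 1.5% and 8.62, 7.07 and 8.24 under it, which overlap, replicate 1 being lower over 1.5%. In the αPD-1 + corin samples they held 1.38, 1.71 and 1.23 UMIs over 1.5% and 1.56, 1.87 and 1.36 under it, which is lower over 1.5% in each sample. In strict T cells the αPD-1 samples held 6.90 to 8.79 UMIs per cell over 1.5% and 4.00 to 4.67 under it, without overlap. In the αPD-1 + corin strict T cells the values were 0.92 to 1.63 and 0.97 to 1.31 UMIs per cell, which overlap. In finer steps of Malat1 share, the summed level in αPD-1 strict T cells went from 599 CPM at up to 0.5% to 2374 CPM just under and 2681 CPM just over the 1.5% limit and 5372 CPM over 2%. In αPD-1 + corin strict T cells the same steps held 222, 518, 609 and 583 CPM. Cells over 2% numbered 146 and 34. The part of depth and of RNA quality in this difference was not tested.

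**Figure D3:**
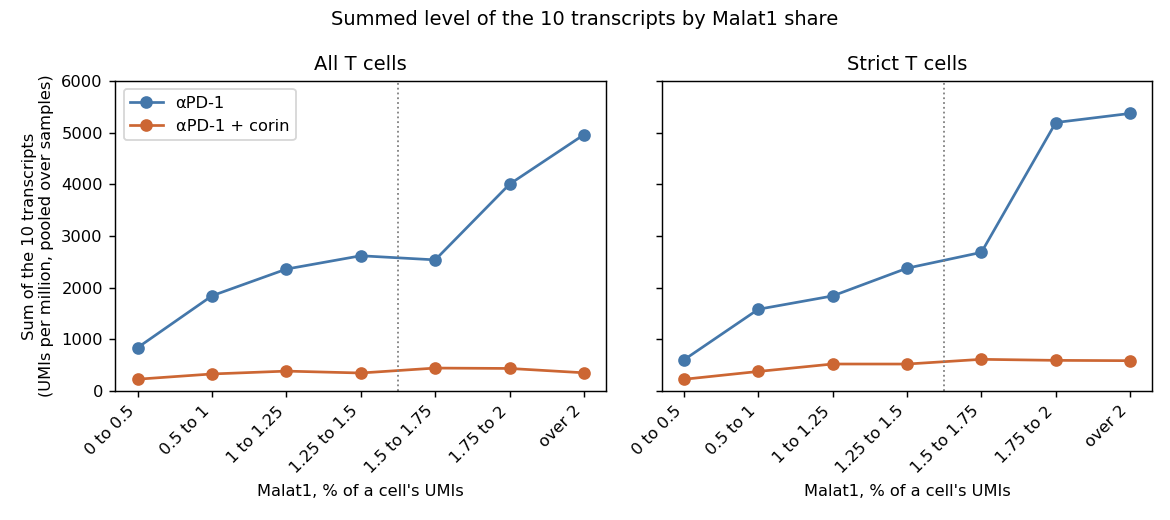
Sum of the 10 transcripts (CPM, pooled over the 3 samples of a group) by the share of Malat1 in a cell's UMIs, in all T cells (left) and strict T cells (right); the dotted line is the limit of 1.5%. In strict T cells the αPD-1 line goes from 599 to 5372 CPM and the αPD-1 + corin line stays between 222 and 609 CPM.

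NK cells and B cells are other lymphocytes in which the treatments were compared. There were 62, 69 and 40 NK cells with αPD-1 and 38, 41 and 110 with αPD-1 + corin, and 6 of the 10 genes had counts enough for the fit. Their fitted log2 fold changes were all negative, with a median of -0.56, beside 0.01 over all 2613 genes, of which 0.0383% were called lower by edgeR. Bach2 stood at 453, 430.3 and 439.5 CPM against 281, 281 and 266 CPM, which is -0.58 ± 0.20 on the log2 scale (SE). Ssbp2 stood at 149, 106 and 136 CPM against 57.9, 91.5 and 89.8 CPM (-0.52 ± 0.30). These were the 2 of 6 genes without overlap, beside 13.4% of genes tested. Aff3 stood at 318, 257 and 377 CPM against 116, 289 and 142 CPM and Wwox at 177, 115 and 199 CPM against 74.5, 127 and 62.2 CPM, αPD-1 + corin replicate 2 being the highest of its group for both. Aff3 (-0.69 ± 0.30), Wwox (-0.80 ± 0.34), Fgf13 (-0.55 ± 0.35) and Scml4 (-0.20 ± 0.43) overlapped between the groups. With 1 sample left out, the log2 fold change of Aff3 ran from -1.15 to -0.46, the lowest without αPD-1 + corin replicate 2. St8sia1, St8sia6 and Auts2 had 0 to 5 UMIs and Rapgef4 0 to 3 UMIs in any NK sample, so that no difference was detectable at this depth. The 3 Cd3 genes are at 0 in these cells by the gate, and Trac had a UMI in 0% to 13.2% of them. Neutrophil markers came to 0 to 14.2 CPM in the αPD-1 NK cells and to 38.0 to 215 CPM in the αPD-1 + corin NK cells. The median Malat1 share of NK cells was 0.647% to 0.829% against 0.385% to 0.547%, and their median ribosomal share 13.4% to 15.4% against 17.3% to 18.2%, both without overlap. The part of these measures in the values was not tested.

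B cells carried Bach2 and Aff3 at higher levels than T or NK cells. There were 640, 595 and 935 of them with αPD-1 and 54, 41 and 15 with αPD-1 + corin. Bach2 stood at 1677, 1465 and 1845 CPM against 663, 1000.1 and 998 CPM. Its log2 fold change was -0.95 ± 0.19 (SE), and between -1.19 and -0.74 with 1 sample left out. Of 7529 genes tested, 0.186% were called lower by edgeR. Aff3 stood at 1047, 997 and 1120.2 CPM against 392, 741 and 323 CPM (-1.06 ± 0.24). Rapgef4 stood at 87.4, 90.9 and 117 CPM against 10.0, 74.1 and 58.7 CPM (-1.23 ± 0.49), and Fgf13 at 55.3, 50.4 and 89.5 CPM against 30.1, 24.7 and 0 CPM (-1.504 ± 0.68). Together with Scml4 these 5 of the 8 genes fitted did not overlap, beside 16.3% of genes tested. St8sia6 stood at 18.4, 23.8 and 20.9 CPM against 10.0, 12.3 and 29.3 CPM, the latter from 1 UMI in each sample. Wwox was level, at 109 ± 8.18 CPM and 116 ± 38.8 CPM (0.15 ± 0.30). The αPD-1 + corin values rest on 181 UMIs of Bach2 and at most 26 of any other gene but Aff3, among 214595 UMIs. Macrophage markers came to 482 CPM in αPD-1 + corin replicate 1 and to 81.1 to 97.0 CPM in the αPD-1 samples, and neutrophil markers to 296 CPM in αPD-1 + corin replicate 2 and to 9.09 to 13.3 CPM in the αPD-1 samples. The median mitochondrial share of B cells was 2.27% to 2.77% with αPD-1 and 3.20% to 3.73% with αPD-1 + corin, and their median ribosomal share 17.7% to 18.2% and 18.4% to 22.8%, both without overlap. The part of these measures in the values was not tested.

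**Figure D4:**
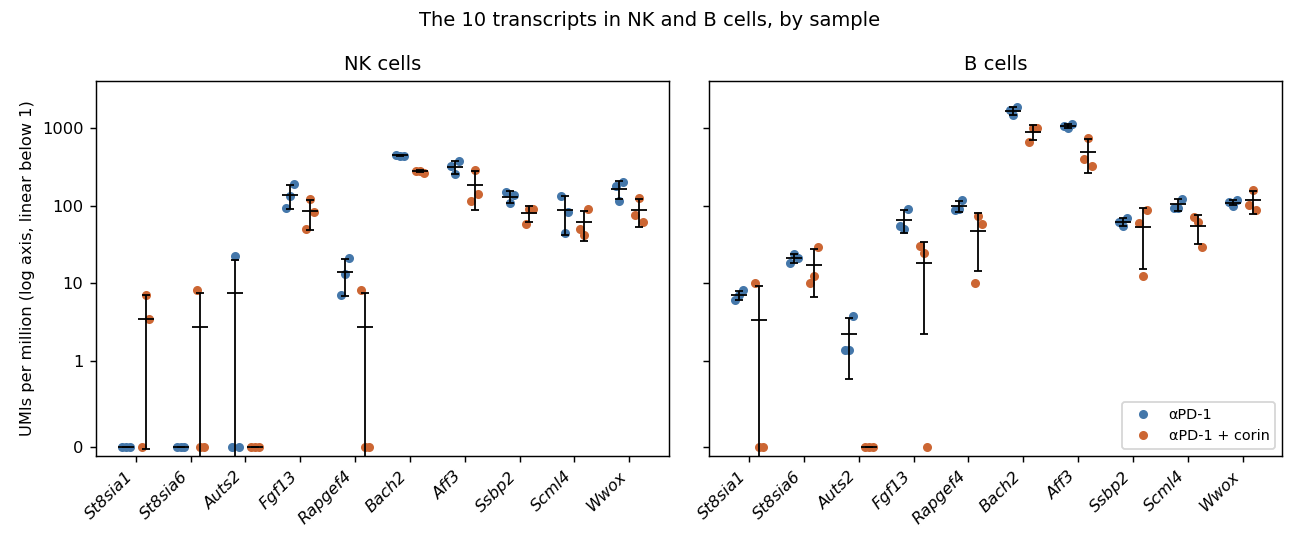
CPM of the 10 transcripts in NK cells (left) and B cells (right), on an axis that is logarithmic above 1. Points are samples and bars are the mean ± SD (n = 3); Bach2 is apart between the groups in both, while Wwox overlaps in both.

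In the classes beside T, NK and B cells the 10 genes differed in where they were found. Their summed level in monocytes and macrophages was 205 ± 30.7 CPM with αPD-1 and 136 ± 5.49 CPM with αPD-1 + corin. In fibroblasts it was 553 ± 61.4 and 304 ± 96.6 CPM, and in dendritic cells 419 ± 107 and 295 ± 47.8 CPM. In melanoma cells it was 726 ± 276 and 752 ± 187 CPM. Melanoma cells left after the enrichment (158 and 779 cells) held Rapgef4 at 406 ± 252 CPM (SD, n = 3) and 331 ± 81.6 CPM and Aff3 at 159.5 ± 18.8 CPM and 206 ± 42.2 CPM, with overlap between the groups for both. In the same cells St8sia1 had 0 UMIs in both groups, and Bach2 stood at 4.87 ± 0.410 CPM and 3.25 ± 1.43 CPM. Wwox in melanoma cells was higher in the αPD-1 + corin group without overlap, at 91.0 ± 13.1 CPM and 149 ± 43.4 CPM. Monocytes and macrophages held little of most of the genes, with Bach2 at 55.4 ± 6.86 CPM and 35.5 ± 7.20 CPM and St8sia1 at 2.08 ± 0.0938 CPM and 1.09 ± 0.209 CPM, but Wwox at 95.0 ± 17.7 CPM and 73.5 ± 7.47 CPM. Cells that met the endothelial gate (99 and 85) held Bach2 at 898 ± 416 CPM and 36.5 ± 34.6 CPM, without overlap. Their summed level of the 10 genes was 2386 ± 794 and 508 ± 38.6 CPM. The 4 markers of that gate (Pecam1, Cdh5, Kdr and Cldn5) also came to 170 to 208 CPM in αPD-1 B cells. Of them only Pecam1 was above 0 in replicate 3. A Lef1 or Ccr7 UMI was in 9.09% to 24.2% of this class with αPD-1 and 0% to 13.9% with αPD-1 + corin. How many of these cells are lymphocytes was not tested. In dendritic cells St8sia1 was level at 25.0 ± 6.40 CPM and 25.9 ± 8.97 CPM. No test was made in these classes.

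Gene span went with the difference between treatments beyond the 10 genes in strict T, NK and B cells, by a smaller amount. With the 10 left out, 428 genes of 200 kb or more had a median log2 fold change of -0.26 in strict T cells and 2131 genes under 10 kb one of 0.18. Of the long genes, 69 fell and 2 rose by edgeR. In all T cells the long genes had a median of -0.04, with 112 of 564 lower and 31 higher, and genes under 10 kb had 0.12. The order by span did not hold throughout there, since genes of 100 to 200 kb had a lower median of -0.15. In NK cells the medians were -0.35 over 160 long genes and 0.20 over 602 short ones, with 0 long genes called. In B cells they were -0.20 over 333 and -0.02 over 1501. The 10 genes lay far below the long genes in strict T cells, at a median of -2.34. Between Malat1 classes the order by span was the reverse, with a median of 0.71 over 519 long genes, 225 of them higher and 2 lower, and of -0.42 over 2410 short ones. There the 10 genes, at a median of 1.16, were nearer to the long genes. Genes share samples and are not replicates, so these medians carry no test.

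**Figure D5:**
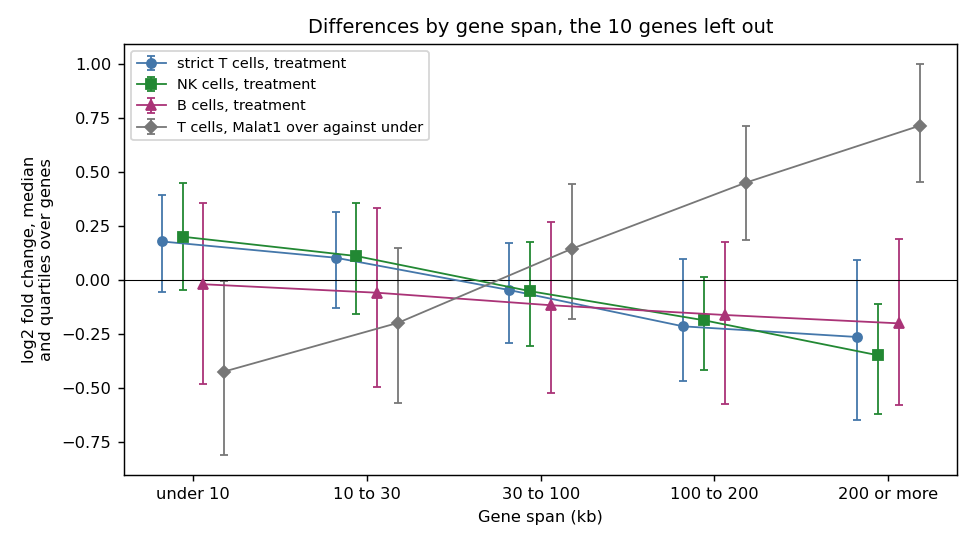
Median log2 fold change (points) and quartiles (bars) over tested genes other than the 10, by gene span in kb, for the treatment in strict T, NK and B cells and for Malat1 over against under 1.5% in T cells. The treatment medians go down with span, to -0.26, -0.35 and -0.20 at 200 kb or more, and the Malat1 medians go up to 0.71.

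Most close relatives of the genes did not pass the test. Of 26 relatives by family, 18 could be tested in T cells. With αPD-1 + corin 4 of the 18 fell by edgeR, beside 9.04% of all genes tested, and 0 rose. Their median log2 fold change was -0.22 beside 0.03 over all genes. Those that fell were Scmh1 (-0.91 ± 0.17, SE), a Polycomb relative of Scml4, Rapgef6 (-0.71 ± 0.13), an exchange factor for Rap, Aff4 (-0.53 ± 0.13) of the elongation complex, and Phc3 (-0.43 ± 0.11) of Polycomb. Bach1 had a log2 fold change of 0.70 ± 0.24 that did not pass (adjusted p = 0.0875), and St8sia4, which polymerizes sialic acid, one of -0.22 ± 0.21. In strict T cells 1 of 17 relatives fell, which was Scmh1 (-1.32 ± 0.23), beside 3.37% of all genes tested. Between Malat1 classes 4 of 18 were higher, beside 7.53% of all genes tested, led by St8sia4 (0.75 ± 0.15). Ssbp1, listed for its name alone, encodes a mitochondrial DNA-binding protein and was lower (-0.74 ± 0.23).

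Of 19 naive T cell genes, 13 fell and 0 rose in αPD-1 + corin T cells, with a median of -1.29, led by Dapl1 (-2.72 ± 0.39), the factor Lef1 (-2.61 ± 0.16), Tdrp (-2.51 ± 0.35) and the chromatin organizer Satb1 (-2.14 ± 0.12). In strict T cells 13 fell, Igfbp4 the most (-3.10 ± 0.60). Of 12 effector genes, 2 rose, Ccl4 (1.06 ± 0.17), a chemokine, and Id2 (0.73 ± 0.16), a regulator of effector cells, and 0 fell. Of 10 nuclear RNAs and transcripts of long or intron-rich genes, 9 were tested and 3 fell, Kcnq1ot1 (-0.96 ± 0.13), the cytoskeletal gene Macf1 (-0.76 ± 0.10) and Mir142hg (-0.57 ± 0.11). Of 10 housekeeping genes only Gapdh passed, and it rose (0.92 ± 0.15). Of 97 genes named Rpl or Rps with a number, 90 were tested, 1 rose (Rps27l, 0.64 ± 0.13) and 2 fell, and those that fell, Rps6ka3 and Rps6ka5, are kinases. These lists were chosen with earlier results of these data known.

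Between Malat1 classes the same lists parted. Of the naive genes 9 were higher and 0 lower over 1.5%, led by Tdrp (1.67 ± 0.38) and Lef1 (0.92 ± 0.22), of the effector genes 8 were lower and 0 higher, led by Prf1 (-1.71 ± 0.23) and Gzmb (-1.51 ± 0.26), which encode perforin and a granzyme. Of the nuclear RNAs 4 of 9 were higher, led by Neat1 (0.94 ± 0.16), 9 of 10 housekeeping genes were lower, led by Ppia (-1.14 ± 0.13), and of the genes named Rpl or Rps 76 of 90 were lower and 3 higher. Of all genes tested, 863 were higher and 1335 lower with TMM factors, and 1269 were higher and 1030 lower with RLE factors.

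The genes most like the 10 were found by Pearson's r with their mean log2 CPM over 12 sums of T cells (6 samples by Malat1 class), among 8057 genes of at least 20 CPM. They were Ccm2 (r = 0.991), a scaffold of endothelial and other cells, Foxp1 (r = 0.991), a factor of T cell quiescence that spans 597 kb and is also among the naive genes, Lef1 (r = 0.986), Arhgap15 (r = 0.984), a Rac GTPase-activating protein that spans 647 kb, and Arhgef18 (r = 0.983). The sums are of all T cells, those that also met the B cell gate included. They share libraries, depths and the treatment that chose the genes, so r is a description. Over 1.5% Malat1, Foxp1 averaged 1705 CPM in the αPD-1 samples and 311 CPM in the αPD-1 + corin samples, and under 1.5% 804 and 206 CPM. Lef1 averaged 684 and 63.0 CPM over 1.5% and 247 and 39.6 CPM under it.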

How the data were processed

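Single-cell 5′ RNA-Seq (10x Genomics) of 6 samples was analyzed. The authors ran Cell Ranger 8.0 with GRCm39, per the submitters' processing notes, and deposited raw UMI counts per gene and barcode without normalization. Whether intronic reads were counted is not given in the sources used here. Barcodes were kept at 600 to 4000 genes and up to 10% mitochondrial UMIs. The top Scrublet scores (scanpy 1.11.5) were removed at 0.4% per 1000 barcodes (2002 barcodes), since the caller's own threshold marked 0. Sums of UMI counts over the cells of a class in a sample were compared with edgeR 4.0.16 (quasi-likelihood, TMM, filterByExpr, Benjamini-Hochberg adjusted p under 0.05) in R 4.3.3, and with DESeq2 1.42.0 as an alternative. Classes other than T cells met 1 marker gate alone, in UMIs of fixed markers. The gates were B 3, NK 2, macrophage 5, neutrophil 10, dendritic 3, melanoma 30, fibroblast 10 and endothelial 3. Strict T cells met no other gate. A fold change is αPD-1 + corin against αPD-1, or over against under 1.5% Malat1. Levels in the text are plain CPM, without TMM factors.

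The rule for the 10 genes names their UMIs in T cells, by Malat1 class and in B and NK cells, so no p-value is given for them although these fits were planned as tests. The genes and lists were chosen with earlier results of these data known. Named besides the 10 are up to 4 genes of each list with the largest change past the threshold, and the 5 most alike by Pearson's r of log2(CPM + 10). A few relatives that did not pass were named after their values were seen. The fits were tested on simulated data with 200 changed genes, and the T cell fit found 193 with 7 false calls, the Malat1 fit 162 with 5, the interaction 68 with 2, the NK fit 165 with 11 and the B cell fit 105 with 5. A marker of the B cell gate, a gene of the naive list and a planned split by naive markers that used that gene are not reported here. Intervals and limits of a count of 0 (3 counts) cover counting error only.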

Additional observations from a re-analysis of the deposited data

How the results depend on the processing

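The median log2 fold change of the 10 genes in T cells was -2.54, and -2.83 to -2.38 with 1 sample left out. Its sign was fixed in advance, since the genes were chosen as lower in these cells, so only its size is described. It was -2.33 without doublet removal, -2.17 without the limit of 4000 genes, -2.34 in strict T cells and -2.99 in cells over 1.5% Malat1 alone. Split by Lef1 and Ccr7, a choice made after the data were seen, it was -1.69 in T cells with no UMI of either. In strict T cells it was -1.32 without and -2.16 with such a UMI. The count of all genes lower in T cells, 1144, was 517 with the replicate block, 348 in strict T cells, 70 without a naive marker UMI, 621 over 1.5% Malat1, 0 and 622 in strict T cells without and with a naive marker UMI, and 172 to 1526 with 1 sample left out.

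Counts of the 10 genes at an adjusted p under 0.05 are given as a description and not as a test, since these values were part of their choice. Between Malat1 classes the count was 10, beside 863 (7.53%) of the 11457 genes tested. With at least 2 Cd3 UMIs it was 5, beside 439 of all genes. With a limit of 3% it was 6, beside 216 of all genes, Bach2 then standing at -0.015. With 1 sample left out it was 6 to 10, beside 447 to 779 of all genes. With a limit of 1% the count of all genes higher was 1510. Shares over all genes are not given for these other settings. Over all genes the interaction's count of 101 was 350 with no filter on low counts, 162 without the limit of 4000 genes and 159 with a mitochondrial limit of 5%. It was 51 in strict T cells, 8 with a limit of 1% Malat1, 12 with 3% and 30 to 324 with 1 sample left out. The interaction changed sign for St8sia1 (0.19 with at least 2 Cd3 UMIs, 0.032 with 1% Malat1 and -0.73 to 0.20 with 1 sample left out, the highest without αPD-1 + corin replicate 2), Aff3 (-0.30 to 0.14 with 1 sample left out, the highest without the same sample), Bach2 (0.018 without doublet removal) and Rapgef4 (-0.68 without doublet removal, -1.27 without the limit of 4000 genes, -9.41 with 3% Malat1).

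In NK cells the count of all genes lower was 1. That count was 25 with no filter, 5 by DESeq2, 0 without doublet removal and 3 with a mitochondrial limit of 5%. It ran from 0 to 18 with 1 sample left out. With 1 sample left out Scml4 ran from -0.73 to 0.25, the highest without αPD-1 replicate 1. In B cells the count of all genes lower was 14. That count was 151 with no filter, 34 by DESeq2, 35 with a mitochondrial limit of 5% and 26 with the replicate block. It ran from 0 to 94 with 1 sample left out. With 1 sample left out Ssbp2 ran from -0.93 to 0.040, the highest without αPD-1 + corin replicate 2, and Wwox from -0.25 to 0.30, the lowest without that sample. Wwox was -0.0017 with no filter and -0.084 with a mitochondrial limit of 5%. The share of T cells over 1.5% Malat1 differed by 0.0398 percentage points, and by -6.56 in strict T cells, -6.46 with a limit of 1%, -0.546 with 3% and -4.93 to 3.13 with 1 sample left out. The causes of these changes were not tested.

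Replicate numbers are shared by the groups, and the labels do not say whether same-numbered samples are paired. The deviations of same-numbered samples correlated at 0.15, 0.05 and -0.25, and those of other pairs at -0.42 to 0.38. With 3 samples in a group these values cannot settle it. With the replicate block all 10 genes were also lower in T cells, in the contrast that chose them. Depth limits the B cells of the αPD-1 + corin samples, with 34085 to 99521 UMIs each, and the NK cells, where St8sia1, St8sia6, Auts2 and Rapgef4 could not be tested.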
